A study of Mus musculus with 9 samples.

Results

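The Hox genes encode homeodomain transcription factors and lie in clusters named a to d, where the number of a gene gives its place (its paralogue number). The members described here are the genes of the platform annotation named Hoxa, Hoxb, Hoxc or Hoxd followed by a number. They were 33 of 18193 genes measured, with 9 genes of cluster a, 9 of b, 7 of c and 8 of d, each read from its brightest probe set (by mean level). Cells were sorted by flow cytometry from back skin of neonatal mice at postnatal day 2, with about 50000 cells per population, and each of 3 mice (numbers 2, 4 and 5) gave 1 array per gate. Gate R1 held GFP-CD133- cells, labelled as dermal cells without dermal papilla. R2 held GFP-CD133+ cells, labelled as papilla cells of zigzag hairs, and R3 held GFP+CD133+ cells, labelled as papilla cells of guard, awl and auchene hairs. The dermal papilla is the group of mesenchymal cells at the base of a hair follicle that signals to the hair epithelium, and CD133 is the protein of Prom1. The sources used here do not give strain, sex or the construct behind GFP, and each array holds the RNA of a sorted mixture, not of single cells.

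In the embryo, Hox genes are turned on in the order of their place in the cluster, so that genes at the 3' end (low paralogue numbers) act toward the head and genes at the 5' end (high numbers) act toward the tail, in the tips of the limbs and in the genital bud. Skin fibroblasts keep a pattern of Hox expression that follows the body site they came from. Hoxc13 is in addition known as a regulator of hair keratin genes in the hair-forming epithelium.

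As a guide to background, the 95th percentile over 44 probe sets for olfactory receptors was taken on each array. It lay between 5.14 and 5.46 (log2). Of the 33 Hox genes, 28 were above this guide on all 3 arrays of at least 1 gate, 25 of them in R1, 27 in R2 and 22 in R3. Hoxa4, Hoxa11, Hoxa13, Hoxb1 and Hoxb7 were not. The median level of an array over its probe sets was 6.13 to 6.20. The mean was highest in R2 for 22 of the 33 Hox genes, in R1 for 8 and in R3 for 3. Differences were tested with limma over all 9 arrays with Benjamini-Hochberg adjustment over the 18193 genes, and a gene was called at an adjusted p under 0.05. By that rule 14 Hox genes differed in at least 1 of the 3 comparisons and 19 in none. The comparisons share gates, so a high value in R2 enters both comparisons with R2. In sorted bulk RNA, fewer cells of a type and less RNA per cell cannot be told apart.

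**Figure D1:**
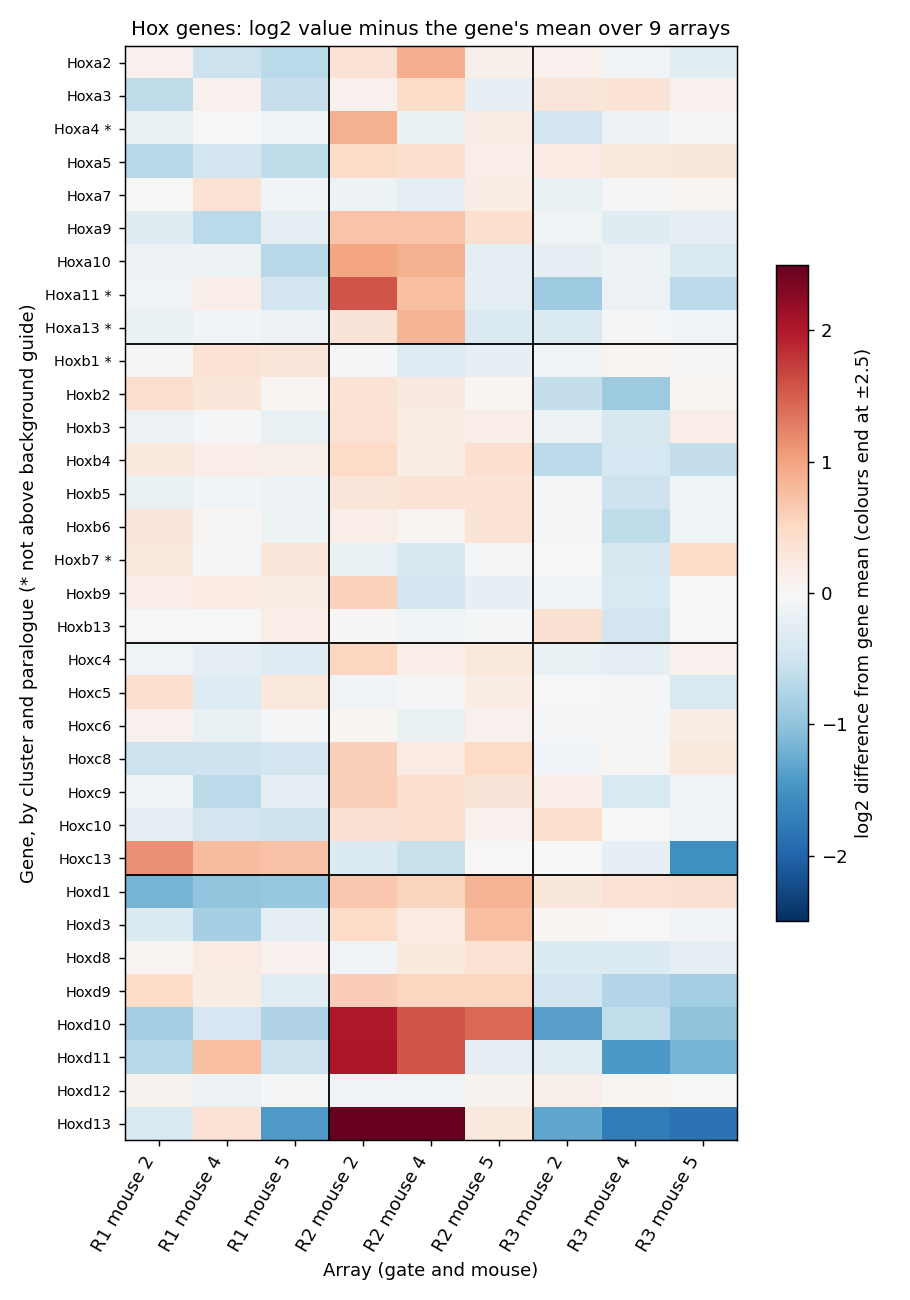
Log2 value of each of the 33 Hox genes (vertical axis, by cluster and paralogue number) on each of the 9 arrays (horizontal axis, by gate and mouse) minus that gene's mean over the 9 arrays, with colours ending at a difference of 2.5; stars mark the 5 genes not above the background guide. The 3 R2 arrays carry the highest mean for 22 genes, and the 5' end of cluster d (Hoxd10, Hoxd11 and Hoxd13) shows the widest range.

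The markers fixed for other skin cells differed between the gates as well. All 10 endothelial markers were called higher in R2 than in R1 and lower in R3 than in R2, and their summed linear level was 1230 to 1527 in R1, 4495 to 5749 in R2 and 966 to 1361 in R3. In R3, 2 of the 10 (Emcn and Robo4) were above the guide on no array. All 6 Schwann cell and glial markers measured were called higher in R3 than in R2, with a summed level of 1310 to 1882 in R1, 515 to 633 in R2 and 6341 to 7233 in R3. Of 11 dermal papilla markers, 9 were called higher in R2 than in R1 and 11 in R3 than in R1, and 4 were called higher in R3 than in R2. All 11 keratinocyte markers were called lower in both CD133+ gates than in R1. Of 8 fibroblast markers, 5 were called lower in R2 than in R1, 5 in R3 than in R1 and 3 in R3 than in R2. Of 8 leukocyte markers, 6 were called lower in R2 and 5 in R3 than in R1. For melanocyte and for skeletal muscle markers, 6 each, these counts were 4 and 5. For 8 pericyte and smooth muscle markers they were 5 and 6, with 1 called higher in each gate. Over all genes, 6.89% were called higher and 6.16% lower in R2 than in R1. The shares were 7.90% and 10.8% in R3 against R1, and 1.97% and 3.06% in R3 against R2. The part of these populations in the Hox differences below was not tested.

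The first comparison asked how Hox expression differs between both papilla populations. Several Hox genes had a lower level in the RNA of R3 than in that of R2, and the gap was widest at the 5' end of cluster d. Hoxd13, Hoxd10, Hoxd9, Hoxb4 and Hoxa9 were called lower in R3, by 13.3-fold to 1.78-fold, and no Hox gene was called higher. These 5 of 33 genes (15.2%) stand beside 3.06% of all genes called lower and 1.97% called higher, or 5.03% in either direction. At an unadjusted p under 0.05, 18 Hox genes were lower and 0 higher, against 18.1% of all genes in either direction. The arrays of both gates did not overlap for 14 Hox genes, all of them lower in R3, whereas this held for 12.8% of all genes lower in R3, 9.98% higher and 22.7% in all. The median log2 change was -0.43 over the Hox genes, 26 of them negative, and -0.01 over all genes. The count of genes called lower was 3 without the R2 array of mouse 4 or without the R3 array of mouse 4, and 8 without the R2 array of mouse 5.

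Cluster d held 3 of the 5 calls. Its 5' genes lie side by side on chromosome 2, where the start of Hoxd13 is 29.5 kb from that of Hoxd9 and 94.8 kb from that of Hoxd1, at the other end of the cluster. The 250 bases before the transcription start are given for the gene with the widest fall (Hoxd13), for the nearby Hoxd11 and Hoxd10, and for Hoxd1, whose pattern across the gates differs from theirs. Hoxd12, which lies between Hoxd13 and Hoxd11 and hardly changed at a low signal, and the first start of Hoxd11 are not shown. They are the plus strand of GRCm38.p6 from RefSeq, each ending at the base before the start, with motif matches in capitals.
Hoxd13, chr2:74667975-74668224: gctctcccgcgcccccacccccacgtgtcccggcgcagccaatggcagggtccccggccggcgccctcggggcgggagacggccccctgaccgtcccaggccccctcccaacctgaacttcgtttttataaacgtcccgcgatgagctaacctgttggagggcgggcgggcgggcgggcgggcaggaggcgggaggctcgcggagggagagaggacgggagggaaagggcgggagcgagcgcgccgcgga
Hoxd11, second start, chr2:74682073-74682322: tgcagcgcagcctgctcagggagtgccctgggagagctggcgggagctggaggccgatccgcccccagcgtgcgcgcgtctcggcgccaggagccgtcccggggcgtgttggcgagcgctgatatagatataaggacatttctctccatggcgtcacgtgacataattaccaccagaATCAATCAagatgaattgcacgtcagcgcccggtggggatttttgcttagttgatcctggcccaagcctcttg
Hoxd10, chr2:74691641-74691890: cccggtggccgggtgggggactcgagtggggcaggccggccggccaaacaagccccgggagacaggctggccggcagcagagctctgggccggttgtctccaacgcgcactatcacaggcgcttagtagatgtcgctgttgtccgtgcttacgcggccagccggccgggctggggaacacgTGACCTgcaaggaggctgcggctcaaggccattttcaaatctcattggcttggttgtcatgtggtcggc
Hoxd1, chr2:74762730-74762979: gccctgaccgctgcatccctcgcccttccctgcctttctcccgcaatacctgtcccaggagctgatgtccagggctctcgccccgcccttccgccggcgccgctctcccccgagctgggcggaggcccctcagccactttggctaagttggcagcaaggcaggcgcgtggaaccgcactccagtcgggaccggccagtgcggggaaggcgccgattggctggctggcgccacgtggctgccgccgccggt
Searches on both strands used TGATNNAT (bound by Hox with Pbx proteins), TTTATGG (bound by the 5' Hox proteins) and AGGTCA (the half-site of retinoid receptors); no match overlapped another. The capitals in Hoxd11 are TGATNNAT read on the other strand, 73 to 66 bases before the start, and those in Hoxd10 are AGGTCA read on the other strand, 69 to 64 bases before it. Hoxd13 and Hoxd1 held none of the 3, and neither did Hoxd12 or the first start of Hoxd11. The table gave 21 promoters for 19 of the 33 members. TGATNNAT was in 3 of these promoters (Hoxa2, Hoxb1 and Hoxd11), against 7.68% of 32851 promoters of the same length. AGGTCA was in 5 (Hoxb4, Hoxc4, Hoxd3, Hoxd8 and Hoxd10), against 14%, and TTTATGG was in 0, against 2.43%. None of the 3 genes with TGATNNAT was called in any comparison, and of the 5 with AGGTCA all but Hoxd8 were called in at least 1. Over all 33 members, 14 were called in at least 1 comparison. A link between a motif and the calls was not tested, and the sets are small. These are descriptions of letters, with no test. The Hox promoters had a median GC content of 59.2% and 13 CpG sites, against 52.4% and 6 in all promoters.

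Hoxd10, a gene of the hindlimb and lumbar region, separated R2 from both other gates. Its log2 values on the arrays of mice 2, 4 and 5 were 5.54, 5.94 and 5.61 in R1, 8.37, 7.93 and 7.79 in R2, and 5.02, 5.75 and 5.35 in R3. Every R2 array was above every array of R1 and R3, and the R1 and R3 arrays overlapped near the guide. From R2 to R3 it fell 6.30-fold (log2 change -2.66, SE 0.22, limma adjusted p = 0.000137). The same gene was 5.05-fold higher in R2 than in R1 (log2 change 2.34, SE 0.22, limma adjusted p = 0.00015). R3 and R1 differed by -0.32 (limma adjusted p = 0.374). Both folds rest on dim signals in R1 and R3.

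Hoxd13, the last gene of the cluster, patterns digits and external genitalia. Mice 2, 4 and 5 gave 6.21, 6.94 and 5.16 in R1, 9.34, 9.90 and 6.83 in R2, and 5.29, 4.84 and 4.75 in R3. R2 lay above R3 in every mouse with no overlap of arrays, but the R2 array of mouse 5 was under the R1 array of mouse 4. The fall from R2 to R3 was 13.3-fold (log2 change -3.73, SE 0.71, limma adjusted p = 0.016), and the rise from R1 to R2 was 6.01-fold (log2 change 2.59, SE 0.71, limma adjusted p = 0.0424). Over the alternatives these changes ran from -4.66 (without the R2 array of mouse 5) to -1.93 (mean of both probe sets), and from 1.45 (mean of both probe sets) to 3.52 (without that array). Hoxd13 was above the guide on 1 of 3 arrays in R3 and 2 of 3 in R1, so the sizes rest on dim signals. Neither call held throughout. The fall had an adjusted p of 0.069, 0.0552, 0.0597 and 0.0514 without the R2 array of mouse 2, the R2 array of mouse 4, the R3 array of mouse 4 or the R3 array of mouse 5. The rise had 0.0948, 0.124, 0.132 and 0.137 without the R1 array of mouse 2, the R1 array of mouse 5, the R2 array of mouse 2 or the R2 array of mouse 4, and 0.0886 when its 6 arrays were fitted alone. A second Hoxd13 probe set was under the guide in mean in every gate (4.58 ± 0.05 in R1, 4.89 ± 0.28 in R2 and 4.76 ± 0.28 in R3, SD, n = 3) and was called in neither comparison.

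Hoxd9, which acts in the proximal limb and lumbar region, was well above the guide everywhere. Its values were 9.63, 9.34 and 8.88 in R1, 9.77, 9.69 and 9.69 in R2, and 8.69, 8.43 and 8.31 in R3. All R3 arrays were under all others. Against R2, the R3 level was 2.36-fold lower (log2 change -1.24, SE 0.19, limma adjusted p = 0.00491) and 1.75-fold lower than in R1 (log2 change -0.81, SE 0.19, adjusted p = 0.0159). The second of these calls was lost without the R1 array of mouse 4 (0.0527), the R3 array of mouse 4 (0.0525) or the R3 array of mouse 5 (0.0537).

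Hoxd11 lies between Hoxd10 and Hoxd12 and shapes the forearm and wrist. It gave 4.92, 6.36 and 5.08 in R1, 7.65, 7.18 and 5.36 in R2, and 5.33, 4.17 and 4.46 in R3. R2 and R3 did not overlap, though the R2 array of mouse 5 was only just above the highest R3 array. The difference of -2.08 (SE 0.60) had a limma adjusted p of 0.0853, and it was called once the R2 array of mouse 5 was left out. Hoxd12, its neighbour, stayed between 5.88 and 6.14 on all 9 arrays, and its log2 changes were 0.10, -0.01 and 0.09 for R3 against R2, R2 against R1 and R3 against R1 (limma adjusted p = 0.732, 0.982 and 0.659). The SE of each was 0.12. The Hoxd12 values come from 1 probe set and lie not far above the guide (5.14 to 5.46). Among the other genes with paralogue number 13, Hoxa13 did not pass the guide and changed by -0.43, 0.39 and -0.03, and Hoxb13, a gene of the tail bud and prostate, by 0.02, -0.11 and -0.09, none of them called.

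**Figure D2:**
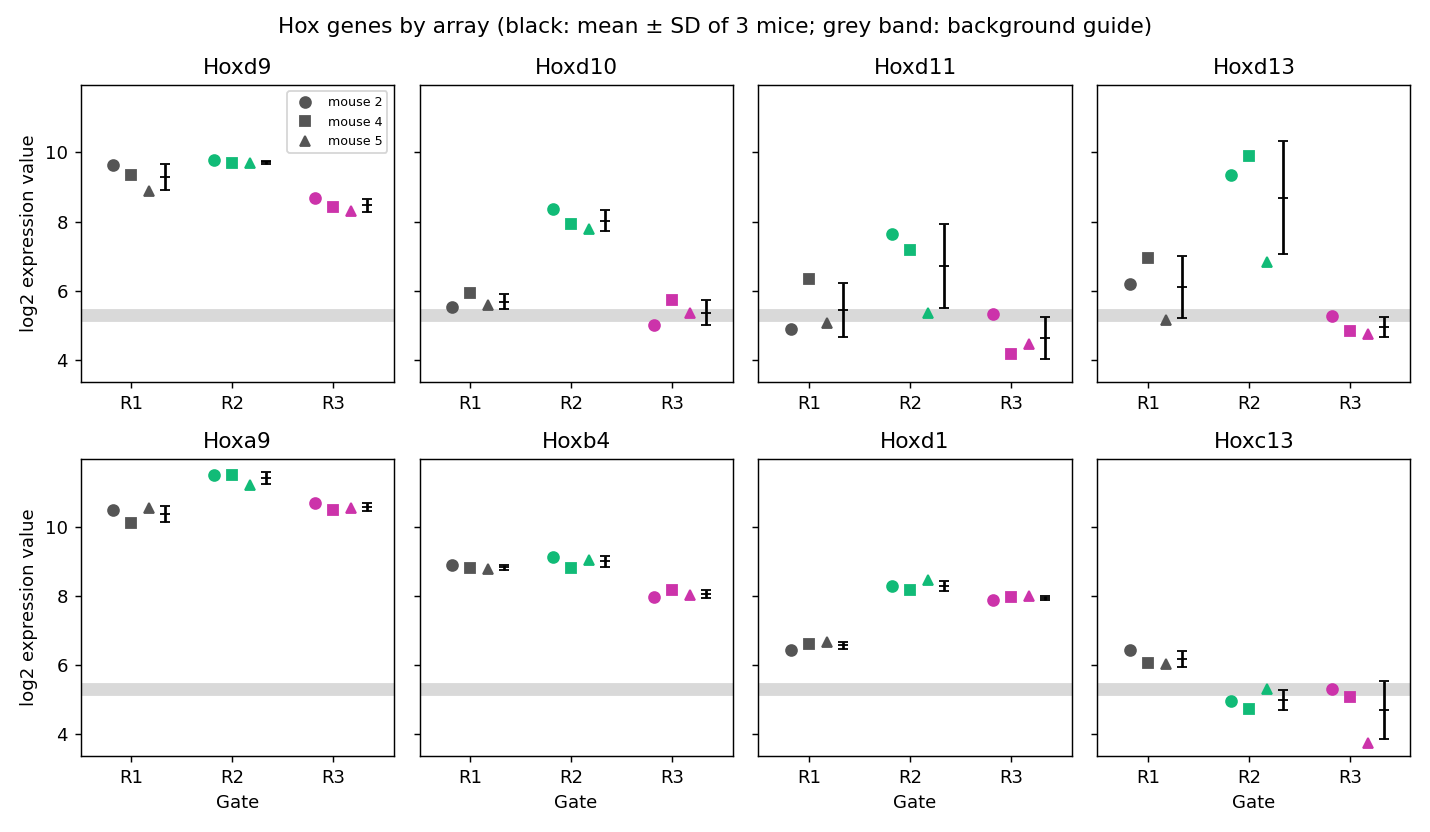
Log2 expression values (vertical axis) of 8 Hox genes by gate (horizontal axis), 1 symbol shape per mouse, with the mean ± SD of 3 mice in black and the range of the background guide (5.14 to 5.46) as a grey band. Hoxd10 is high on all 3 R2 arrays, Hoxd11 and Hoxd13 are high in R2 of mice 2 and 4, and Hoxd1 is low in R1 alone. Levels of different genes come from different probe sets and have no common scale.

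Outside cluster d, Hoxb4 and Hoxa9 were the genes called lower in R3 than in R2. Hoxb4, known from blood stem cells and neck patterning, gave 8.89, 8.79 and 8.77 in R1, 9.13, 8.81 and 9.04 in R2, and 7.96, 8.18 and 8.03 in R3. R3 lay under both other gates with no overlap. Its level in R3 was 1.92-fold lower than in R2 (log2 change -0.94, SE 0.13, limma adjusted p = 0.0025) and 1.70-fold lower than in R1 (log2 change -0.76, SE 0.13, adjusted p = 0.0028). A second Hoxb4 probe set changed in the same directions and was called in neither (-0.18 with limma adjusted p = 0.655, and -0.46 with 0.0878). The mean of both probe sets fell by 0.56 (log2) from R2 to R3.

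Hoxa9, which acts in blood progenitors and the lumbar region, gave 10.48, 10.11 and 10.53 in R1, 11.49, 11.49 and 11.20 in R2, and 10.68, 10.48 and 10.53 in R3. Every R2 array was above every other array, and R1 and R3 overlapped. From R2 to R3, Hoxa9 fell 1.78-fold (log2 change -0.83, SE 0.15, limma adjusted p = 0.0128), and from R1 to R2 it rose 2.03-fold (log2 change 1.02, SE 0.15, adjusted p = 0.00209). Its other probe set was called in both comparisons in the same directions. The call between R3 and R2 was lost without the R2 array of mouse 2 (0.0549), the R2 array of mouse 4 (0.0575) or the R3 array of mouse 4 (0.0558).

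By cluster, the genes called lower in R3 than in R2 were 1 of 9 in a, 1 of 9 in b, 0 of 7 in c and 3 of 8 in d. Their median log2 changes were -0.51, -0.36, -0.28 and -0.86. Without adjustment, limma gave p under 0.05 for 3 genes of cluster c, all lower. By place, the paralogues 9 to 13 held 4 of the 5 calls among 14 genes, with a median of -0.65, against 1 of 10 for paralogues 1 to 4 (median -0.46) and 0 of 9 for paralogues 5 to 8 (median -0.16), where 4 genes were lower and 0 higher at p under 0.05 before adjustment. These counts were not tested against each other. Among genes above the guide, the highest change per cluster was that of Hoxa3 (0.12), Hoxb13 (0.02), Hoxc6 (0.04) and Hoxd12 (0.10), none of them called. Hoxb7 (0.23) and Hoxb1 (0.18), both not above the guide, had higher values in cluster b, and the most negative changes in cluster c were Hoxc9 (-0.53, limma adjusted p = 0.159) and Hoxc4 (-0.43, 0.151).

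The second comparison asked how the GFP-CD133+ papilla gate differs from the other dermal cells. Hoxa5 and Hoxa9, Hoxc4, Hoxc8, Hoxc9 and Hoxc10, and Hoxd1, Hoxd3, Hoxd10 and Hoxd13 were called higher in R2 than in R1, by 1.46-fold to 6.01-fold. In all, 10 of 33 Hox genes (30.3%) were called higher and 0 lower, beside 6.89% of all genes called higher and 6.16% lower (13.1% in either direction). At an unadjusted p under 0.05, 15 Hox genes were higher and 2 lower, against 26.5% of all genes in either direction. Arrays did not overlap for 13 Hox genes higher in R2 and 2 lower, against 15.4% of all genes each way and 30.8% in all. The median log2 change was 0.44 over the Hox genes and -0.02 over all genes. The count called higher was 6 without the R2 array of mouse 2 or without the R2 array of mouse 4, and 13 without the R2 array of mouse 5.

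Hoxd1, a 3' gene known from sensory neurons of the mouse, had the lowest p of the Hox genes. Its values were 6.44, 6.60 and 6.65 in R1, 8.28, 8.15 and 8.44 in R2, and 7.87, 7.97 and 7.98 in R3. Every CD133+ array was above every R1 array by more than 1 log2 unit. The level was 3.31-fold higher in R2 than in R1 (log2 change 1.72, SE 0.12, limma adjusted p = 3.88e-05) and 2.59-fold higher in R3 than in R1 (1.37, SE 0.12, adjusted p = 8.07e-05). R3 and R2 differed by -0.35 (limma adjusted p = 0.163), with R3 lower on every array. Hoxd1 and Hoxd10 thus sit in the same cluster with different orders of the gates. Hoxd3, which patterns the first vertebrae, gave 5.78, 5.30 and 5.88 in R1, 6.60, 6.33 and 6.89 in R2, and 6.17, 6.13 and 6.06 in R3, and was 1.94-fold higher in R2 than in R1 (log2 change 0.95, SE 0.19, limma adjusted p = 0.00919).

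Hoxa5, needed for the lung and the neck to chest boundary, was higher in both papilla gates. It gave 7.34, 7.60 and 7.41 in R1, 8.51, 8.47 and 8.21 in R2, and 8.25, 8.30 and 8.32 in R3. R1 lay below the others without overlap, and R2 and R3 overlapped. The level was 1.92-fold higher in R2 than in R1 (log2 change 0.94, SE 0.13, limma adjusted p = 0.00122) and 1.79-fold higher in R3 than in R1 (0.84, SE 0.13, adjusted p = 0.00167).

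In cluster c, 4 of 7 genes were called higher in R2 than in R1: Hoxc4, Hoxc8, Hoxc9 and Hoxc10, genes of the neck, chest and loin levels of the body. Hoxc8 gave 9.62, 9.63 and 9.70 in R1, 10.74, 10.36 and 10.65 in R2, and 10.08, 10.18 and 10.42 in R3. R1 did not overlap with the other gates. Hoxc8 was 1.91-fold higher in R2 than in R1 (log2 change 0.93, SE 0.14, limma adjusted p = 0.00243) and 1.49-fold higher in R3 than in R1 (0.57, SE 0.14, adjusted p = 0.02). The call of R3 against R1 was lost without the R1 array of mouse 2 (0.0589), the R1 array of mouse 4 (0.0599) or the R3 array of mouse 5 (0.0636). The rises of Hoxc9 (1.71-fold, limma adjusted p = 0.0241), Hoxc10 (1.63-fold, 0.0256) and Hoxc4 (1.46-fold, 0.0367) were smaller, with no overlap of arrays between R1 and R2. They were less secure. Hoxc9 was not called without the R1 array of mouse 4 (0.0773), the R2 array of mouse 2 (0.0827) or the R2 array of mouse 4 (0.0658). Hoxc10 was not called without the R1 array of mouse 4 or 5 or the R2 array of mouse 2 or 4 (0.0762 to 0.0909), and Hoxc4 was not called without any 1 of the 6 arrays (0.0516 to 0.118).

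By cluster, the genes called higher in R2 than in R1 were 2 of 9 in a, 0 of 9 in b, 4 of 7 in c and 4 of 8 in d, with median log2 changes of 0.83, -0.05, 0.55 and 1.12. Without adjustment, limma gave p under 0.05 for 3 genes of cluster b, 2 higher and 1 lower. The largest positive change there was that of Hoxb5 (0.46, limma adjusted p = 0.0645), whose change from R2 to R3 was -0.54 (0.0664). Hoxb5 had 8.44, 8.47 and 8.48 in R2, above every R1 and R3 array. Hoxb9 had the lowest change of the cluster b genes above the guide (-0.22), Hoxa7 that of cluster a (-0.17) and Hoxd12 that of cluster d (-0.01). By place, 3 of 10 genes with paralogue numbers 1 to 4, 2 of 9 with 5 to 8 and 5 of 14 with 9 to 13 were called higher. With the mouse as a fixed block, Hoxa2 (limma adjusted p = 0.0459) and Hoxa10 (0.0324) were called higher as well.

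**Figure D3:**
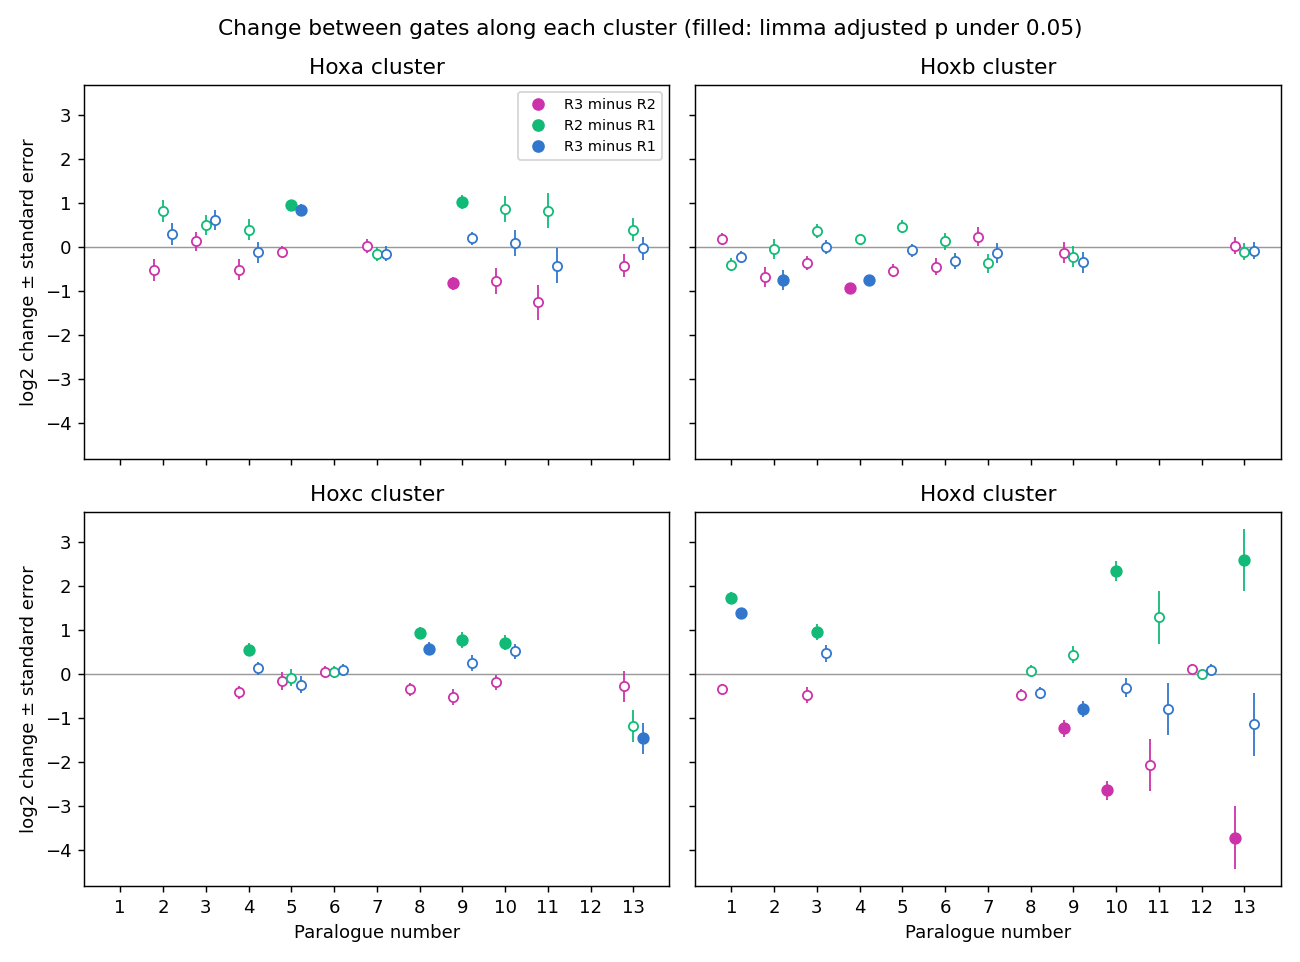
Log2 change with its standard error (vertical axis) against paralogue number (horizontal axis) in each cluster, for R3 minus R2, R2 minus R1 and R3 minus R1; filled points have a limma adjusted p under 0.05. In cluster d the changes reach -3.73 and 2.59 at Hoxd13, with Hoxd12 near 0, while in cluster b all 9 changes of R3 against R1 are below 0.

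The third comparison set the GFP+CD133+ papilla gate against the other dermal cells. It moved Hox genes in both directions. Hoxd1, Hoxa5 and Hoxc8 were called higher in R3 (3 of 33, 9.09%, beside 7.90% of all genes called higher), and Hoxb2, Hoxb4, Hoxc13 and Hoxd9 were called lower (4 of 33, 12.1%, beside 10.8% called lower and 18.7% in either direction). These shares were near those of all genes. At an unadjusted p under 0.05, 6 Hox genes were higher and 5 lower, against 31.2% of all genes in either direction. Arrays did not overlap for 5 higher and 5 lower, against 15.5% and 18.9% of all genes (34.4% in all). The median log2 change was -0.09 over the Hox genes and -0.01 over all genes. All 9 genes of cluster b had a negative change, from -0.76 to -0.0004, and 2 of them were called. With the mouse as a fixed block, Hoxa3 (limma adjusted p = 0.0329) and Hoxc10 (0.035) were called higher too and Hoxb2 was not (0.0756), so that 5 were higher. The same 2 genes were gained and Hoxb2 lost when each array was centred on its median. The count called lower was 2 without the R1 array of mouse 2, the R1 array of mouse 4 or the R3 array of mouse 4.

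Hoxc13, the hair keratin regulator, was the Hox gene with the widest fall from R1 to R3. It gave 6.44, 6.07 and 6.03 in R1, 4.96, 4.74 and 5.30 in R2, and 5.30, 5.09 and 3.76 in R3. R1 was above both CD133+ gates without overlap. Hoxc13 was above the guide on 1 of 3 arrays in R2 and 1 of 3 in R3. The R3 array of mouse 5 was far under its guide of 5.30, so the sizes rest on dim signals. Over the alternatives the change of R3 against R1 ran from -1.76 to -0.99. R3 was 2.77-fold lower than R1 (log2 change -1.47, SE 0.36, limma adjusted p = 0.0181), a call lost without the R1 array of mouse 2 (0.0645). R2 differed from R1 by -1.19 (limma adjusted p = 0.0581). Of 6 hair matrix keratinocyte markers, 2 (Krt35 and Lhx2) were called lower in each CD133+ gate than in R1, beside 6.16% (R2) and 10.8% (R3) of all genes. At an unadjusted p under 0.05, limma gave 4 lower and 0 higher in R2, and 2 lower and 1 higher in R3. Above the guide on no array were 3 of the 6 in R1, 4 in R2 and 4 in R3. The summed linear level of the 6 was 478 to 701 in R1, 269 to 393 in R2 and 373 to 438 in R3. The part of such cells in the Hoxc13 values was not tested.

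Hoxb2, a hindbrain gene of the 3' end, gave 6.13, 6.01 and 5.76 in R1, 6.05, 5.93 and 5.76 in R2, and 5.11, 4.79 and 5.76 in R3. In mouse 5 all 3 gates had the same value, and R1 and R3 overlapped. The change of R3 against R1 was -0.74 (SE 0.23, limma adjusted p = 0.0495), and its adjusted p ran from 0.00546 to 0.155 over 13 alternatives, 3 of which kept the call. Hoxd8 was lower in R3 on every array without passing the test, by -0.49 against R2 (limma adjusted p = 0.0821) and -0.43 against R1 (0.058), although its other probe set was called lower against R1 (-0.66, 0.0271). With the mouse as a random block, the Hoxd8 change against R1 was called (0.0487). Hoxa3 had the largest positive change of the uncalled genes against R1 (0.62, limma adjusted p = 0.0924), followed by Hoxc10 (0.51, 0.0713). The lowest changes against R1 in clusters a and d were those of Hoxa7 among the genes above the guide (-0.15) and of Hoxd13 (-1.15, limma adjusted p = 0.319), and the highest in cluster b was that of Hoxb3 (-0.0004).

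The spread between mice was wide for a few 5' genes, most of them in R2. The median SD over 3 mice was 0.19 for the Hox genes and 0.19 for all genes in R1, 0.18 and 0.18 in R2, and 0.20 and 0.19 in R3. Above the 90th percentile of the SD of all genes were 2 Hox genes in R1 (Hoxd11 and Hoxd13), 7 in R2 and 3 in R3 (Hoxb2, Hoxc13 and Hoxd11). The 7 in R2 were Hoxa4, Hoxa10, Hoxa11, Hoxa13, Hoxb9, Hoxd11 and Hoxd13, with Hoxd13 widest (SD 1.63). In 5 of them the R2 array of mouse 5 was the low one. Against the mean of mice 2 and 4 it was lower by 2.79 (log2) for Hoxd13, 2.05 for Hoxd11, 1.41 for Hoxa11, 1.17 for Hoxa10 and 0.94 for Hoxa13, whereas Hoxd10 differed by -0.36. On that array Hoxa11 and Hoxa13 were under the guide and Hoxd11 was only just above it, so these sizes rest on dim signals. More than 1 log2 unit lower on that array were 4 of 10 genes with paralogue numbers 10 to 13 and 0 of 23 with lower numbers, beside 1.33% of all genes. Other arrays stood apart for some of the same genes. Against the other mice, Hoxd11 and Hoxd13 were more than 1 higher on the R1 array of mouse 4. Hoxd13 was more than 1 lower on the R1 array of mouse 5, and Hoxa11 and Hoxd11 more than 1 higher on the R2 array of mouse 2. The R2 array of mouse 5 was singled out after its values were seen, so these figures are a description.

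Limb and genital patterning factors varied on the same array. Of 12 such genes, Dlx5 was lower by 2.62 in R2 of mouse 5, Tbx4 by 1.73 and Dlx6 by 1.01, and Hand2 by 0.93. Dlx6 was above the guide on no array of any gate, and Dlx5 was under it on the R2 array of mouse 5, so their differences rest on background signal. Tbx4, a hindlimb factor, gave 6.45, 5.73 and 5.99 in R1, 7.91, 7.68 and 6.06 in R2, and 4.60, 5.16 and 5.25 in R3. Tbx4 was the 1 gene of this list called between R3 and R2, 4.64-fold lower in R3 (limma adjusted p = 0.0185), where 1 of 3 arrays was above the guide. Its log2 change ran from -2.79 (without the R2 array of mouse 5) to -1.32 (mean of all its probe sets). That call was lost without the R2 array of mouse 2 (0.0676), the R2 array of mouse 4 (0.0742), the R3 array of mouse 2 (0.0715) or the R3 array of mouse 4 (0.053). Without the R2 array of mouse 5, 3 of the 12 (Tbx4, Dlx5 and Dlx6) were called lower in R3 than in R2. With every array kept, 3.06% of all genes were called lower in R3 than in R2. Shox2, a factor of the proximal limb, had another pattern. It was higher in R2 than in R1 (2.25-fold, limma adjusted p = 0.000304) and in R3 than in R1 (3.01-fold, 3.7e-05), and no other gene of the list was called in those comparisons. With the mouse as a fixed block, Tbx5, a forelimb factor, was called higher in R2 than in R1 (log2 change 0.72, limma adjusted p = 0.0302, and 0.0853 without the block). Without the R2 array of mouse 5, 5 of the 12 were called higher in R2 than in R1, with Dlx5, Dlx6, Tbx4 and Tbx5 gained. With every array kept, 6.89% of all genes were called higher in R2 than in R1. The shares of all genes called in these directions without this array are not given here, so neither count can be set against them. Both counts without this array include Dlx6, whose signal was at background, and follow from an array singled out after its values were seen. The Shox2 change from R1 to R2 was 0.74 (log2) with the mean of all its probe sets.

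**Figure D4:**
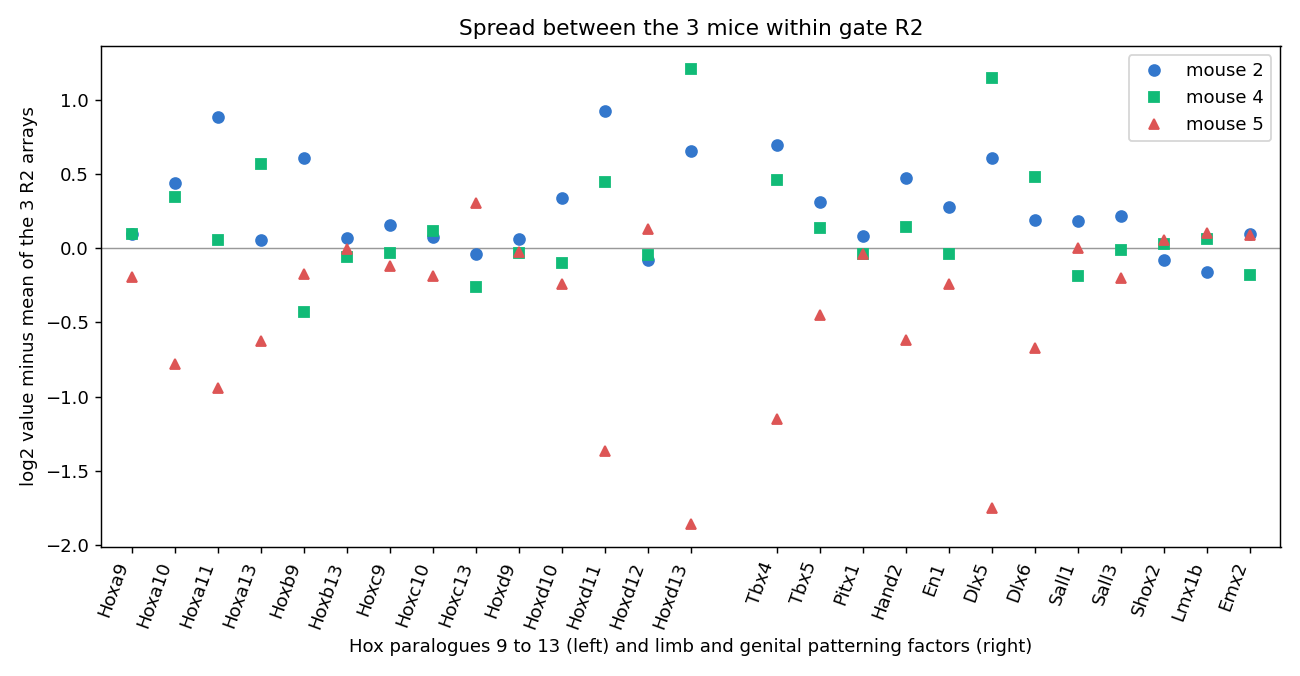
Log2 value on each R2 array minus the mean of the 3 R2 arrays (vertical axis) for the Hox paralogues 9 to 13 (left) and 12 limb and genital patterning factors (right), 1 colour and shape per mouse. Mouse 5 is the lowest for Hoxa10, Hoxa11, Hoxa13, Hoxd11 and Hoxd13 and for Dlx5, Dlx6 and Tbx4, while Hoxd9, Hoxd12 and Hoxb13 lie close together.

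Several Hox genes had more than 1 probe set. For 11 members there were 26 probe sets in all, and no gene was called in opposite directions by its probe sets. The 22 calls (14 genes over 3 comparisons) included 8 for genes with another probe set. That other probe set had the same sign in all 8 and was itself called in 3, for Hoxa9 in both comparisons and for Hoxa5 in R2 against R1.

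Hox proteins bind DNA with TALE homeodomain partners of the Meis, Pbx and Pknox families. Of 8 such genes measured, none was called between R3 and R2, where limma also gave 0 at an unadjusted p under 0.05. Pbx3 was 1.73-fold higher in R2 than in R1 (limma adjusted p = 0.0133) and 1.72-fold higher in R3 than in R1 (0.0104), and Meis3 was 1.65-fold higher in R2 than in R1 (0.0195). The Meis3 call was lost without the R1 array of mouse 4 (0.0564), the R1 array of mouse 5 (0.0507), the R2 array of mouse 2 (0.0691) or the R2 array of mouse 4 (0.0647). The first Pbx3 call was lost without the R2 array of mouse 2 (0.0518), and the second with the mean of all Pbx3 probe sets (0.198).

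Chromatin proteins of the Polycomb and Trithorax groups keep Hox clusters silent or active. Of 25 measured genes that act on Hox clusters, 5 were called higher in R2 than in R1 and 5 in R3 than in R1, beside 6.89% and 7.90% of all genes called higher, and 0 were called lower. At an unadjusted p under 0.05, limma gave 8 higher and 2 lower in R2 than in R1, against 26.5% of all genes in either direction. For R3 against R1 it gave 8 higher and 3 lower, against 31.2%. With the mouse as a fixed block, Ring1, a Polycomb subunit, was called lower in R2 than in R1 (log2 change -0.69, limma adjusted p = 0.0265) and in R3 than in R1 (-0.61, 0.0313), against 0.0776 and 0.0959 without the block. With the mouse as a random block, Wdr5, a partner of Kmt2a, was called lower in R3 than in R1 (-0.55, 0.0466). Kdm6a, a demethylase that removes the Polycomb mark, was 2.15-fold higher in R2 than in R1 (limma adjusted p = 0.00185) and 2.13-fold higher in R3 than in R1 (0.00138). Bmi1, a Polycomb subunit, was 1.75-fold higher in R2 than in R1 (0.00131), and Jarid2, a partner of the Polycomb methyltransferase, was 1.48-fold higher in R3 than in R1 (0.0094). These 4 calls held under all 14 alternatives, though the mean of all Kdm6a probe sets gave smaller log2 changes (0.70 and 0.70). Kmt2a, the Trithorax-type methyltransferase, was 1.46-fold and 1.41-fold higher in R2 and R3 than in R1 (limma adjusted p = 0.0147 and 0.017). Its first call was lost without the R2 array of mouse 2 (0.0544) or of mouse 4 (0.0604), and its second without the R1 array of mouse 2 (0.0525) or the R3 array of mouse 4 (0.0597). Cbx8 and Phc3, further Polycomb subunits, had adjusted p values of 0.0412 (Cbx8, R2 against R1), 0.0394 (Cbx8, R3 against R1) and 0.0283 (Phc3, R3 against R1), and each call was kept without just 1 of the 6 arrays, the R1 array of mouse 2 for Cbx8 and the R3 array of mouse 2 for Phc3. With 1 array left out, the 5 calls became 2 to 5 for R2 against R1 and 2 to 4 for R3 against R1. Between R3 and R2, Bmi1 was the 1 gene called, 1.40-fold lower in R3 (0.0383). Of the 6 arrays, each but the R3 array of mouse 5 ended that call when left out (0.0903 to 0.12), as did the mouse as a fixed block (0.0564). The fixed block also ended the Cbx8 calls (0.0611 and 0.058) and the call of Jarid2 between R2 and R1 (0.0625). The mean of all probe sets ended the calls of Bmi1 between R3 and R2 (0.223) and of Phc3 (0.314). It also ended both Cbx8 calls, between R2 and R1 (0.0629) and between R3 and R1 (0.141).

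Among 15 measured neighbours and noncoding transcripts of the clusters, none was called between R3 and R2. There limma gave 1 higher and 4 lower at an unadjusted p under 0.05, against 18.1% of all genes in either direction. Against R1, 1 was called higher and 1 lower in R2, and 1 higher and 2 lower in R3. Over all genes, 13.1% and 18.7% were called in those comparisons. Hibadh, which encodes an enzyme of valine breakdown, was higher in R3 than in R2 by 0.66 (log2, limma adjusted p = 0.0623). It was called under 8 of 14 alternatives, among them the mouse as a fixed block (0.0477) or a random block (0.0498). Against R1 the fixed block called Hibadh (0.51, 0.0463) and Snx10 (0.50, 0.0235) higher in R3. Hoxd3os1, a noncoding transcript of cluster d, was 2.32-fold lower in R3 than in R1 (limma adjusted p = 0.0362, and 0.0648 with the mean of its probe sets), with 9.14, 7.89 and 7.58 in R3 of mice 2, 4 and 5. Skap2, a gene beside the 3' end of cluster a, was 2.10-fold lower in R3 than in R1 (0.0296). Its change from R1 to R2 was -0.99 (0.0522), which 9 of 14 alternatives called, among them the mouse as a fixed block (0.006) or a random block (0.0384). Hnrnpa1, an RNA-binding protein gene beside cluster c, was 1.36-fold and 1.35-fold higher in R2 and R3 than in R1 (0.0323 and 0.0291). Hoxb5os, a noncoding transcript of cluster b, had 5.97, 8.99 and 5.90 in R1, where mouse 4 stood apart, and was above the guide on no array of R2 or R3. With the guide taken as the R2 level, its mean was 3.06-fold lower in R2 than in R1, a size that includes the R1 array of mouse 4. The fitted log2 change of R2 against R1 was -2.56 (limma adjusted p = 0.0498), and -1.54 without the R1 array of mouse 4. These calls were fragile, with adjusted p values of 0.051 to 0.135 where they were lost. The Hoxb5os call was lost without any 1 of the R2 arrays and with the mouse as a fixed block (0.0561). The calls of Hnrnpa1, and of Skap2 in R3 against R1, were kept without the R1 array of mouse 5, and that of Hoxd3os1 without the R3 array of mouse 2, and all were lost without any other array of their comparison.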

How the data were processed

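RNA from 3 gates of 3 mice (9 arrays) was isolated on columns, then amplified (WT-Ovation Pico), biotin-labelled and measured on 1-colour arrays, per the labels' protocols. The authors deposited log2 values for each probe set. RMA is named in the submitters' processing notes (background correction, quantile normalization and summary of probes). The sources used here do not state its version or whether it was run on all arrays at once. The quantile step can hide a change shared by most genes, amplification can alter folds, and the number of arrays limits the precision.

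Of 45101 probe sets, 34958 had 1 symbol in the platform annotation, 932 had several and 9211 none. Of those with 1 symbol, 34741 matched a RefSeq table and 0 were updated. For each of 18193 genes the brightest probe set by mean level was used. Gates were compared in R 4.3.3 by limma 3.58.1 (functions lmFit, contrasts.fit, eBayes; 1 coefficient per gate over 9 arrays, no mouse block, no filter), adjusted over all genes, with errors as SE for changes and SD over 3 mice for means. The fit was tested on simulated data. Per the labels, arrays with the same number share a mouse, which pairs them. Deviations from gate means correlated at 0.01 to 0.18 within a mouse and at -0.16 to 0.04 between mice.

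The members and gene lists were chosen with earlier results of these data known. Members named with values are those called in any comparison, paralogues 12 and 13, and the highest and lowest change per cluster and comparison among genes above the guide. A few others, named for their spread or for narrowly missing the threshold, were chosen after their values were seen. In other lists, the called genes with the 4 lowest p per comparison are named. The settings varied were a mouse block (fixed or random), each array left out, the 6 arrays alone, median centring, quantile normalization again, the mean of a gene's probe sets, probe sets singly, genes above the median gene, and trend with robust variance. Protein sequences were not used here. Motifs were searched with Python 3.11.15, and plots were drawn with matplotlib 3.10.9.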

Additional observations from a re-analysis of the deposited data

How the results depend on the processing

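Leaving aside probe sets tested singly, 12 of the 22 calls of Hox genes held under every alternative that gave a value. They were Hoxa5 and Hoxd1 in both comparisons with R1, Hoxb4 in both with R3, and Hoxd10 in both with R2. The others were Hoxd9 in R3 against R2, and Hoxa9, Hoxc8 and Hoxd3 in R2 against R1. Tested singly, the second Hoxb4 probe set was called in neither comparison (limma adjusted p = 0.655 and 0.0878). The second Hoxa5 probe set was not called in R3 against R1 (0.0809). None of the 22 changed sign. The genes called lower in R3 than in R2 numbered 5, and 3 to 8 with 1 array left out. Those called higher in R2 than in R1 numbered 10, and 6 to 13 with 1 array left out. Lower in R2 than in R1 was 0, and 1 with the 6 arrays alone, the mean of all probe sets or the trend and robust variance (Hoxc13 each time), and 0 to 1 with 1 array left out. Higher in R3 than in R1 was 3, but 5 with each array centred on its median, and 2 to 3 with 1 array left out. Lower in R3 than in R1 was 4, and 2 to 3 with 1 array left out. The cause was not tested.

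The replicate block (mouse as a fixed term) gave 5 lower in R3 than in R2, 12 higher in R2 than in R1, and 5 higher and 3 lower in R3 than in R1, and changed no call of a Hox gene beyond those given with the results. Over all genes, the calls numbered 582 to 1048, 1554 to 2608 and 2519 to 3648 in the same order of comparisons. Hoxb2, Hoxc13, Hoxd3, Hoxd10 and Hoxd13 have no value when genes under the median gene are left out, since their signal is low. The same alternatives were run for the cofactor, regulator, neighbour and limb genes after seeing the data. With 3 arrays per gate and folds against values near background, sizes of the 5' Hoxd differences are imprecise.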

Other observations

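Probe sets that match more than 1 Hox gene took no part in the comparisons. The probe set shared by Hoxb8 and Hoxb7 gave 7.48, 7.45 and 6.78 in R1, 7.55, 6.86 and 6.66 in R2, and 6.38, 6.56 and 6.17 in R3 (mice 2, 4 and 5, log2). Its R3 arrays were below all others. Of the probe sets shared by Hoxd4 and Hoxd3, one had means of 4.86 ± 0.31, 5.44 ± 0.42 and 4.89 ± 0.24 in R1, R2 and R3, and the other of 6.25 ± 0.08, 6.39 ± 0.19 and 6.18 ± 0.27 (SD, n = 3), with overlapping arrays. Which of the genes these values belong to cannot be told apart.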
